A study of Mus musculus with 12 samples.

Results

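Ide encodes the insulin-degrading enzyme, a zinc protease that cuts insulin, and its messenger RNA stood at 147 ± 0.415 CPM (read counts scaled to a common library size; SD, n = 3) in livers of male mice conceived by in vitro fertilisation (IVF), against 89.2 ± 3.13 (SD, n = 3) in naturally conceived males. It is described here with 9 genes through which the liver answers insulin. They are the receptor Insr, the substrates Irs1 and Irs2, Pik3r1 of a regulatory kinase subunit, and the kinase genes Akt1 and Akt2. The others are the transcription factor gene Foxo1, and Ceacam1 and Grb14, which act on the receptor and its removal. The 10 genes were taken by name from a table of 24527 genes, and all 10 passed a filter on low counts that kept 13204. Ide was put at the head of the list with its values in males already known. DESeq2 had Ide among its 5 calls between IVF and natural males, whereas edgeR's quasi-likelihood test did not call it. Both outcomes rest on the values that chose the gene, so neither counts as support. Its values in that comparison, and in those that use either group of males, are therefore a description with no test. The comparison within females uses neither group of males, so it alone carries a test for Ide.

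The study compared livers of mice conceived by IVF or naturally, in each sex, with 3 libraries in each of 4 groups: IVF females, IVF males, natural females and natural males. All groups came from CF1 mothers and B6SJL fathers, and all 12 animals were 39 weeks old, with no drug or altered gene named. RNA was taken from snap-frozen liver, and libraries were made from polyadenylated RNA. Each title carries a different number, and those of IVF female 1 and IVF male 2 share their leading part. The labels do not say what the numbers mean or which animals shared a litter, so p-values measure the spread between these libraries.

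After a meal, insulin reaches the liver first, through the portal vein, and the liver removes much of it before it enters the general circulation. Insulin binds a receptor that phosphorylates the IRS proteins. These recruit phosphoinositide 3-kinase, whose lipid product brings Akt to the membrane, and Akt in turn phosphorylates FOXO1, which leaves the nucleus and no longer drives genes of glucose production. Insulin that is taken up with its receptor is degraded, in part by IDE. CEACAM1 promotes this uptake, while GRB14 binds the active receptor and blocks its kinase. Most of these steps are changes in proteins, which messenger RNA counts do not measure.

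The libraries held from 6826534 counts (IVF female 1) to 27832271 (natural male 3), and 0 counts in a library leaves up to 0.439 CPM possible at the lowest depth and 0.108 at the highest, counting error only. IVF female 1 and natural female 2, at 6826534 and 8056230 counts, were shallow and stood apart in several of the genes below, so for the 10 genes the IVF difference in females and the average sex difference are given with and without them. The tissue label matched its markers: 9 of 10 hepatocyte genes were in the table and summed to between 90121 and 131839 CPM in every library. Ins1, Ins2 and Gcg, which would mark pancreas, were at 0 in all 12. Fewer cells of a type and less RNA per cell cannot be told apart in such bulk samples.

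Levels of different genes are set side by side only per length, as the 12-library mean CPM per kilobase of the longest coding transcript. On this scale Ceacam1 was highest at 62.8, a group of Ide (19.8), Pik3r1 (19.8), Insr (19.5), Akt1 (18.9), Grb14 (16.4) and Akt2 (14.9) lay close together, and Foxo1 (7.42), Irs1 (4.66) and Irs2 (2.25) were lowest. Genes with short coding isoforms move up if the median transcript is used, which puts Akt2 at 60.3 and Pik3r1 at 77.6 but leaves Ceacam1 highest and Foxo1, Irs1 and Irs2 lowest, in that order.

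Ide (chromosome 19, 37268743 to 37337852, minus strand, GRCm38) is shown here in every liver. The 3 IVF males had 148, 147 and 147 CPM. Natural males had 91.3, 90.6 and 85.6 CPM, IVF females had 86.8, 77.4 and 84.9, and natural females had 71.5, 75.1 and 72.4. Every IVF male thus lay above all 9 other livers, and the lowest of them was 1.61-fold above the highest of the others. The 3 IVF males also lay very close to each other: their coefficient of variation was 0.281%, where counting error alone at 2154 to 2989 counts would give 1.95%.

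That closeness rests in part on the scaling. With CPM from total counts alone, the IVF males had 154, 142 and 135 and the other 9 libraries ranged from 76.1 to 90.0, so the gap remained while the values spread. The fitted difference between IVF and natural males was 0.73 ± 0.13 on the log2 scale (SE), or 1.65-fold. It ranged from 0.71 to 0.86 over 6 other ways of processing, and from 0.69 to 0.74 when 1 library was left out at a time.

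In females the groups overlapped with CPM from total counts alone (85.7, 85.3 and 90.0 after IVF, 76.1, 77.8 and 87.4 after natural conception). With the main scaling they did not overlap, but the step was small. IVF females averaged 83.1 ± 4.99 CPM and natural females 73.0 ± 1.90 (SD, n = 3 each), a log2 difference of 0.19 ± 0.13 with a 95% interval from -0.11 to 0.48. It did not pass edgeR's quasi-likelihood test (unadjusted p = 0.193, Benjamini-Hochberg adjusted p = 1). Without both shallow libraries it was 0.19 ± 0.14. The difference in males exceeded that in females by 0.54 ± 0.19 on the log2 scale, given without a test because the males chose the gene.

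Ordered by group mean with the main scaling, Ide rose from natural females over IVF females and natural males to IVF males. IVF females and natural males are neighbours whose libraries overlap on that scaling. With CPM from total counts alone, all IVF females (85.3 to 90.0) lay above all natural males (77.4 to 82.5), so this order depends on the scaling. Between the sexes, males were higher by 0.29 ± 0.13 (log2, SE) among natural mice, a gap that became -0.02 with scaling by library size alone, a setting that moved the median of all genes to -0.34 in that comparison. Among IVF mice males were higher by 0.83 ± 0.14. Averaged over both modes of conception the sex difference was 0.56 ± 0.10, or 1.47-fold (0.56 ± 0.09 without both shallow libraries), again described and not tested.

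**Figure D1:**
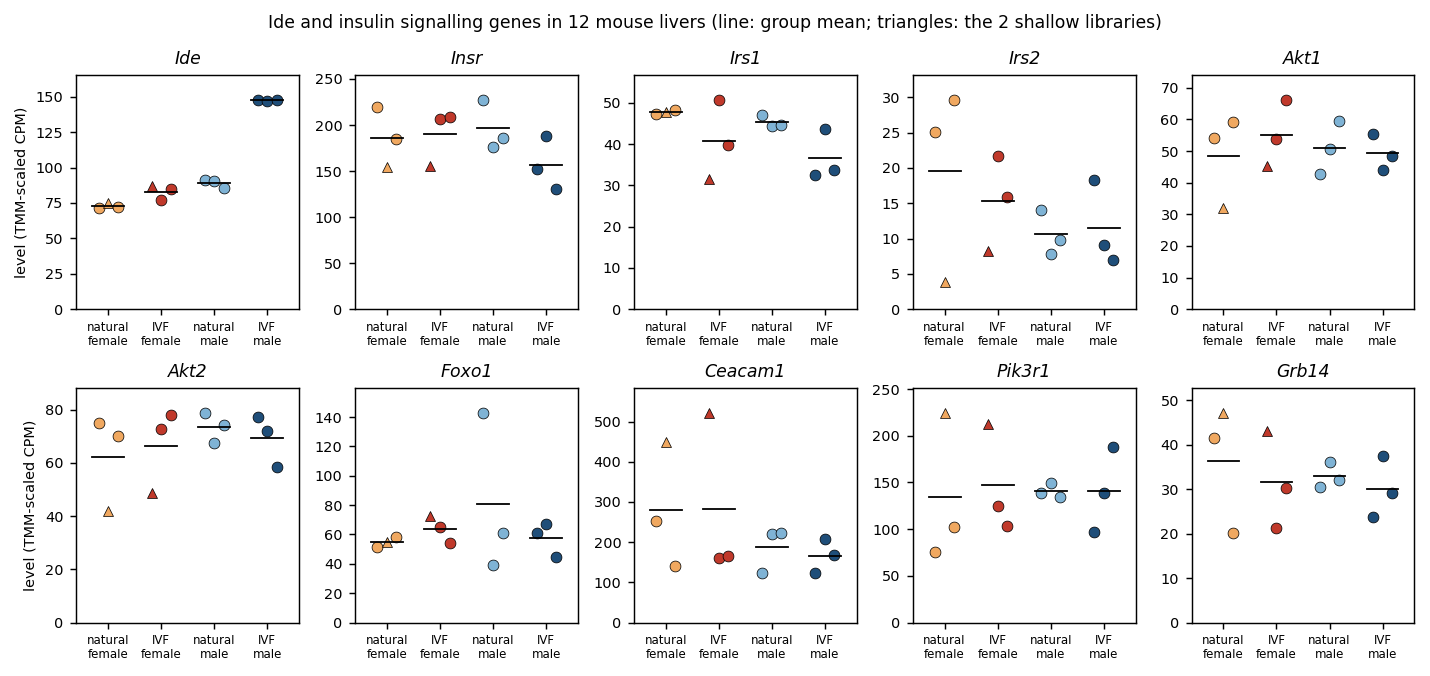
Level of each of the 10 genes in every library, in TMM-scaled CPM on an axis from 0, by group; lines are group means and triangles mark the shallow libraries. The IVF males sit at 147 to 148 CPM for Ide, above all others, while the groups overlap widely for most of the other genes.

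Other cell types were checked beside this. The summed level of 8 Kupffer cell and macrophage markers, all 8 tested, reached 144 to 230 CPM after IVF in males, below natural males at 269 to 305 and females at 298 to 448. In males, the sums for the 9 hepatocyte markers were 90121 to 105498 CPM after IVF and 114239 to 114909 after natural conception. In females they were 115695 to 131839 and 108629 to 122575, with the groups overlapping. Again in males, sinusoidal endothelium (8 of 8 genes tested) summed to 207 to 237 CPM after IVF against 227 to 275. Stellate cells (8 of 8) summed to 261 to 352 against 317 to 365 there. Of 5 erythroid genes 3 were at 0 in every library and 1, Alas2, was tested. Alas2 had 174, 25.4 and 22.1 CPM in IVF males and 56.0, 39.2 and 23.4 in natural males, so that only the first IVF male was above the natural range. The part of these shifts in the level of Ide was not tested.

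The genes around Ide were read for the same comparison. Of 14 neighbours in the table, from Hectd2 (648 kb away towards lower coordinates) to Rbp4 (779 kb towards higher), 12 were tested. Fgfbp3 and Cyp26c1 had too few counts. In males none of the 12 was called and none had groups without overlap. Nearest to Ide are Kif11, a mitotic motor gene 38.6 kb away, March5, a mitochondrial ubiquitin ligase gene 46.6 kb away, and Cpeb3, an RNA-binding protein gene 60.1 kb away. Their log2 differences in males were 0.41 ± 0.42, 0.13 ± 0.20 and -0.04 ± 0.33 (SE). Kif11 had only 11 to 34 counts in a library. Btaf1, 256 kb away, stood at 0.27 ± 0.21, and the median of the 12 was 0.02, against 0.01 over all tested genes.

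In females the neighbours spread more widely, and 1 of 12 had groups without overlap, near the 7.42% of all genes. This was Ppp1r3c, which encodes a subunit that directs a phosphatase to glycogen. Its 3 IVF females had 29.7, 67.3 and 48.9 CPM and the natural females had 101, 142 and 71.3, so each IVF female was below each natural one. The log2 difference of -1.10 ± 0.36 did not pass the test (edgeR's quasi-likelihood test, Benjamini-Hochberg adjusted p = 1). Its extremes were the shallow libraries, and without them it was -0.55 ± 0.33. The developmental factor gene Hhex (-0.79) and the retinoic acid hydroxylase gene Cyp26a1 (-0.92) lay on the same side with overlapping groups.

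**Figure D2:**
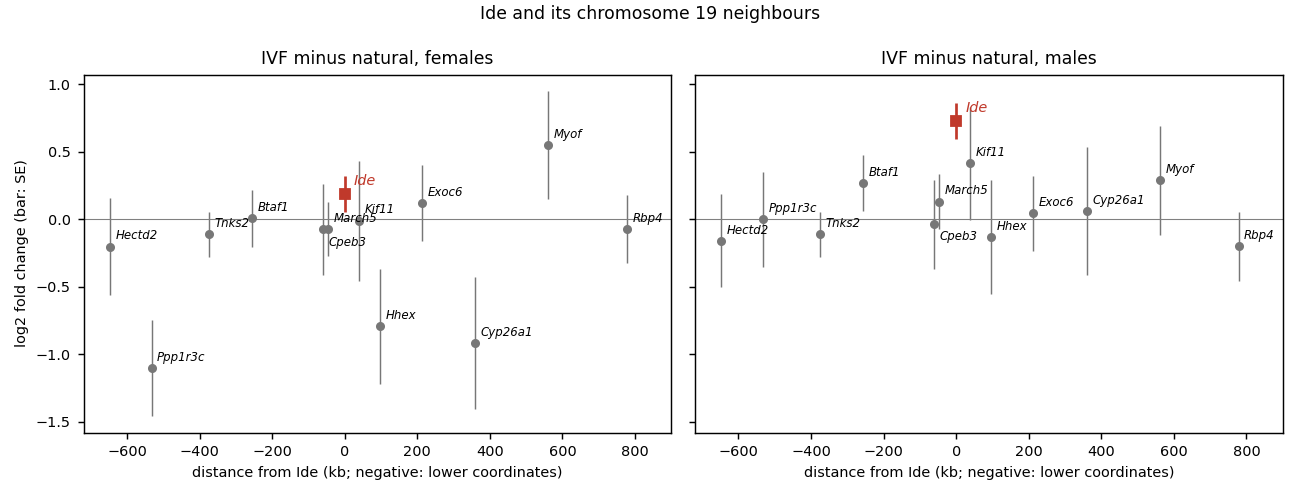
Log2 difference between IVF and natural livers (points, with SE bars) for Ide and its 12 tested neighbours on chromosome 19, against distance from Ide in kilobases, females left and males right. In males Ide is the highest point and the nearest genes lie at 0.41 or below.

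Across the 12 libraries, the 9094 tested genes averaging 5 CPM or more were ranked by how their log2 CPM followed that of Ide. The 5 highest by Pearson r were Ephx1, an epoxide hydrolase gene (r = 0.91, Spearman rho = 0.80), Col27a1, a fibrillar collagen gene (0.88 and 0.90), Uba2, a subunit of the SUMO-activating enzyme (0.87 and 0.83), Pdilt, a disulphide isomerase-like gene (0.87 and 0.85) and Mrps18b, a mitochondrial ribosomal protein gene (0.86 and 0.85). They lie on other chromosomes than Ide. All points share 4 groups and a single scaling, so these values describe the ranking and no more. Ephx1 had 641, 668 and 828 CPM in IVF males and 395, 357 and 305 in natural males. Mrps18b had 30.8, 31.6 and 33.7 CPM in IVF males, against 27.3 to 28.4 in natural males and 20.4 to 23.8 in natural females. For both genes, as for Uba2, all 3 IVF males were above all natural males, which ranking by likeness to Ide favours. Among all tested genes, 8.91% had IVF and natural males without overlap. Col27a1 (29.5 to 99.5 CPM in IVF males, 19.3 to 36.5 in natural males) and Pdilt (8.86 to 22.9 and 5.85 to 8.94) overlapped. Within groups, after taking out the group means, r was -0.42 for Ephx1 and 0.56 for Mrps18b.

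Insr (chromosome 8, 3122061 to 3279617, minus strand) encodes the receptor. Its levels were 152, 188 and 131 CPM in IVF males, 227, 176 and 186 in natural males, 155, 207 and 209 in IVF females and 219, 155 and 184 in natural females. The groups overlap in both sexes, and the lowest liver of all is an IVF male. The log2 difference was -0.32 ± 0.21 in males (95% interval -0.78 to 0.14) and 0.03 ± 0.21 in females (-0.43 to 0.49), or 0.06 ± 0.21 without both shallow libraries. Neither passed edgeR's quasi-likelihood test (Benjamini-Hochberg adjusted p = 1 in both).

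Set against Ide within each library, Insr had 0.886 to 1.28 counts per count of Ide in IVF males and 1.79 to 3.07 in the other 9 livers. This ratio does not depend on the scaling between libraries. It is a description, since Ide was chosen on these males. The receptor of insulin-like growth factor, Igf1r, had few counts, at most 168 in a library.

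Irs1 (chromosome 1, 82233101 to 82291416, minus strand) and Irs2 (chromosome 8, 10984681 to 11008458, minus strand) encode the main docking proteins of the receptor in liver. Irs2 is known as the substrate gene that falls after feeding, through insulin response elements that FOXO factors bind, beside an E-box for other factors. The 250 bases before each RefSeq start (GRCm38.p6) are shown because both hold these letters. Capitals mark the E-box CACGTG and the core CAAAACA of the insulin response element, which reads TGTTTTG on the strand shown:
Irs1, chr1:82291440-82291689, minus strand: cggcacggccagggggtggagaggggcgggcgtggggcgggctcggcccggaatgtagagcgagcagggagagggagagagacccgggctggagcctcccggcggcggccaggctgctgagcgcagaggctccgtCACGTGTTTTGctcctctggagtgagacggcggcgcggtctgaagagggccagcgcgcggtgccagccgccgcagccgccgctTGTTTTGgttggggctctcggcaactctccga
Irs2, chr8:11008930-11009179, minus strand: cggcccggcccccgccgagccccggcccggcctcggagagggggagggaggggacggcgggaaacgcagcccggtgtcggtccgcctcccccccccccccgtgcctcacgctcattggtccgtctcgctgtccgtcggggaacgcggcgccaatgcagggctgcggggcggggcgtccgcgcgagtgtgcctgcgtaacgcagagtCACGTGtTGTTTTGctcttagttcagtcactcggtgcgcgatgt

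In Irs1 the E-box begins 115 bases before the start and shares its last bases with the core that begins 111 bases before it, and a further core begins 32 bases before the start. In Irs2 the E-box begins 44 bases before the start and the core 37 bases before it. The longest runs of letters common to both windows have 10 bases, gtcacgtgtt over the E-box and tgttttgctc over the core. Both windows are rich in CpG, with 28 and 34 sites where the median of 32851 mouse promoters is 6. On either strand, the core was in 5.56% of these promoters, the E-box in 6.02% and both in 0.295%. A window was given for 9 of the 10 genes, with 14 windows in all. The core was in a window of 3 of them (Irs1, Irs2 and Ide) and the E-box also of 3 (Irs1, Irs2 and Ceacam1). The window given for Ide (37334545 to 37334794, with 0 CpG sites) lies inside the gene at the coordinates given above, not before their start. The FOXO core GTAAACA was in a window of Akt1 (3.17% of promoters) and TTCNNNGAA, the STAT5 motif, in a window of Akt2 (7.02%). These are matches of letters and say nothing of binding.

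Irs1 had 32.5, 43.7 and 33.8 CPM in IVF males and 47.2, 44.4 and 44.6 in natural males, so every IVF male was below every natural male. In females it had 31.6, 50.8 and 39.9 CPM after IVF and 47.2, 47.7 and 48.3 after natural conception. The natural groups were narrow, with SDs of 1.55 and 0.554 CPM, and the IVF groups were wide, with SDs of 6.11 and 9.62. The log2 difference was -0.31 ± 0.19 in males and -0.22 ± 0.19 in females, and -0.27 ± 0.13 on average over both sexes. None passed the test (edgeR's quasi-likelihood test, Benjamini-Hochberg adjusted p = 1 in each sex). Without both shallow libraries the value in females was -0.06 ± 0.19. Natural males were also just below natural females, with a log2 difference of -0.07.

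Irs2 had wider groups than Irs1, with 18.3, 9.15 and 7.01 CPM in IVF males, 14.1, 7.89 and 9.84 in natural males, 8.31, 21.7 and 15.8 in IVF females and 25.1, 3.83 and 29.7 in natural females. The lowest liver of each female group is a shallow library. For IVF against natural conception the log2 difference was 0.11 ± 0.60 in males and -0.36 ± 0.60 in females (-0.53 ± 0.41 without both shallow libraries), neither past the test. Males were lower than females by a log2 difference of -0.67 ± 0.43 averaged over modes of conception (edgeR's quasi-likelihood test, Benjamini-Hochberg adjusted p = 0.364).

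Without both shallow libraries this sex difference of Irs2 was -1.07 ± 0.26 and passed the test (edgeR's quasi-likelihood test, Benjamini-Hochberg adjusted p = 0.0372). The libraries left out are the lowest females for Irs2 (8.31 and 3.83 CPM). They were set aside for their depth and because they stood apart in several of these genes. This call is therefore shaped by the values it tests and is given as a description. The 4 other females then ranged from 15.8 to 29.7 CPM and the 6 males from 7.01 to 18.3, so that the ranges still overlapped. The ratio of Irs1 to Irs2 counts went from 1.63 to 12.4, and both extremes are natural females.

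Pik3r1 (chromosome 13, 101680563 to 101768217, minus strand) encodes the regulatory subunit that carries phosphoinositide 3-kinase to the IRS proteins. It had 97.4, 138 and 188 CPM in IVF males, 138, 149 and 134 in natural males, 212, 125 and 103 in IVF females and 75.1, 224 and 103 in natural females. The highest liver of each female group is the shallow library. The log2 difference was 0.00 ± 0.39 in males and 0.13 ± 0.40 in females (0.38 ± 0.28 without both shallow libraries), and none passed the test. The ratio of its counts to those of Pik3ca, the gene of a catalytic subunit, ran from 1.46 to 4.19 over the libraries, not corrected for length.

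Akt1 (chromosome 12, 112653821 to 112674884, minus strand) and Akt2 (chromosome 7, 27591552 to 27640826, plus strand) encode the kinases at the centre of the pathway, AKT2 being the main form in liver. Akt2 had 77.4, 71.9 and 58.4 CPM in IVF males, 78.8, 67.7 and 74.3 in natural males, 48.7, 72.7 and 78.1 in IVF females and 74.8, 41.8 and 69.98 in natural females. Akt1 had 55.3, 43.9 and 48.6, then 42.8, 50.6 and 59.4, then 45.4, 53.8 and 66.3, and 54.2, 32.1 and 59.2 CPM in the same order of groups. Apart from the shallow libraries, which were the lowest female livers for both genes, Akt2 lay between 58.4 and 78.8 CPM in all livers.

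Neither kinase gene differed by a margin that passed the test. The log2 differences between IVF and natural livers were -0.09 ± 0.24 (males) and 0.10 ± 0.24 (females) for Akt2, and -0.05 ± 0.24 and 0.18 ± 0.24 for Akt1. The values in females were 0.07 ± 0.17 and 0.09 ± 0.19 without both shallow libraries. Their 95% intervals reached from -0.62 to 0.44 for Akt2 in males and from -0.34 to 0.71 for Akt1 in females, so smaller changes were not detectable with 3 livers a group. The ratio of Akt2 to Akt1 counts within a library, not corrected for length, ran from 1.07 to 1.84.

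Foxo1 (chromosome 3, 52268336 to 52353221, plus strand) had 60.9, 67.2 and 44.4 CPM in IVF males, 143, 38.9 and 60.7 in natural males, 72.6, 65.1 and 53.9 in IVF females and 51.7, 54.9 and 58.2 in natural females. A single natural male, the first, stood at 143 CPM, and the other 11 livers lay between 38.9 and 72.6. The log2 difference in males was -0.49 ± 0.37 and became 0.20 without that animal. In females it was 0.22 ± 0.37, or 0.13 ± 0.47 without both shallow libraries. Neither passed the test.

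The same natural male was high for 2 glucose-producing genes that FOXO1 is known to drive, as values noticed after they were seen. It had 6071 CPM of Pck1, which encodes phosphoenolpyruvate carboxykinase, where the other 11 livers had 863 to 3233. It had 433 CPM of G6pc, which encodes the glucose-6-phosphatase catalytic subunit, where the next highest liver, the second IVF male, had 391. That IVF male had 67.2 CPM of Foxo1. The other FOXO targets of the natural male are not given here, and a link to its Foxo1 level was not tested.

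Ceacam1 (chromosome 7, 25461707 to 25477603, minus strand) had 122, 209 and 168 CPM in IVF males, 124, 219 and 224 in natural males, 521, 160 and 166 in IVF females and 252, 450 and 140 in natural females. The highest values, 521 and 450, are those of the shallow libraries. The log2 difference was -0.18 ± 0.50 in males and 0.01 ± 0.50 in females. In females it moved from -0.76 without the first IVF female to 0.52 without the second natural female, and was -0.25 ± 0.36 without both. Males were lower than females by a log2 difference of -0.67 ± 0.36 (SE; edgeR's quasi-likelihood test, Benjamini-Hochberg adjusted p = 0.283), and of -0.03 ± 0.23 without both shallow libraries.

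Grb14 (chromosome 2, 64912476 to 65024987, minus strand) had 23.7, 37.3 and 29.0 CPM in IVF males, 30.5, 36.0 and 32.0 in natural males, 43.0, 21.2 and 30.2 in IVF females and 41.4, 47.1 and 20.2 in natural females. All groups overlapped. The log2 difference was -0.13 ± 0.32 in males and -0.21 ± 0.32 in females (-0.25 ± 0.32 without both shallow libraries), and neither passed the test.

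The shallow libraries moved these genes in opposite directions. As log2 differences from the other 4 female livers, they were higher for Ceacam1 (1.47), Pik3r1 (1.13) and Grb14 (0.73), near 0 for Foxo1 (0.15) and Ide (0.08), and lower for Irs1 (-0.26), Insr (-0.40), Akt1 (-0.61), Akt2 (-0.71) and Irs2 (-1.97). Among all tested genes Irs2 was at percentile 0.848 and Ceacam1 at 96.3. The 3 genes of highest GC content in the longest coding transcript, Akt1 (59.7%), Irs2 (56.6%) and Akt2 (55.2%), were the 3 lowest. Over the 10 genes the difference had a Pearson r of -0.66 and a Spearman rho of -0.65 with GC content, and over the 12929 tested genes with a known GC content r was -0.41. The genes share these libraries, so this is a description, and the part of GC content or depth in the values was not tested.

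**Figure D3:**
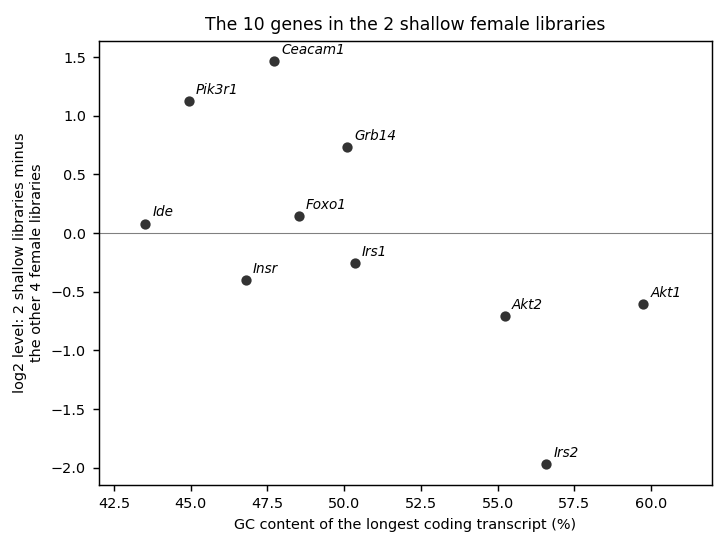
Log2 difference between the 2 shallow female libraries and the other 4 female libraries (vertical) against GC content of the longest coding transcript in percent (horizontal), 1 point a gene. Ceacam1 and Pik3r1 lie above 1 and Irs2 lies lowest at -1.97, while Ide is at 0.08.

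Counted together, none of the 10 genes was called between IVF and natural females by edgeR's quasi-likelihood test (Benjamini-Hochberg adjusted p under 0.05), where 0% of all tested genes were called, and none had an unadjusted p under 0.05, against 3.7%. None of the 9 other than Ide was called between IVF and natural males (0.00757% of all genes, a single gene, Abcd2, named after its value was seen), in the difference between the sexes in the IVF effect (0%) or in the average IVF effect (0.00757%, again Abcd2). Also none of the 9 was called between the sexes among natural mice (1.77%), among IVF mice (2.19%) or on average (7.2%). None of the 9 had an unadjusted p under 0.05 in any of these 6 comparisons, where the share of all genes was 2.69%, 3.87%, 2.69%, 14.9%, 14.9% and 23.6%. DESeq2 and limma voom called none of them either.

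Groups without overlap were found for Ide in females (1 of 10, against 7.42% of all genes), though not with CPM from total counts alone. They were also found for Irs1 in males (1 of 9, against 8.91% of all genes, 4.07% lower after IVF) and for Irs1 between natural males and females (1 of 9, against 20%, 9.85% lower in males). The median log2 difference of the 10 genes was 0.06 in females and -0.11 in males, where all tested genes had medians of -0.01 and 0.01. For males against females it was -0.07, where all genes had -0.01. Without both shallow libraries the difference between males and females of Pik3r1 went from 0.01 to 0.46 ± 0.18, of Akt1 from -0.05 to -0.24 ± 0.12, of Insr from -0.10 to -0.25 ± 0.13 and of Irs1 from -0.11 to -0.21 ± 0.12. That of Akt2 went from 0.15 to -0.07 ± 0.11 and that of Grb14 from -0.10 to 0.14 ± 0.21, both a change of sign, and that of Foxo1 from 0.20 to 0.23 ± 0.31. None of these 7 passed the test in either fit.

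**Figure D4:**
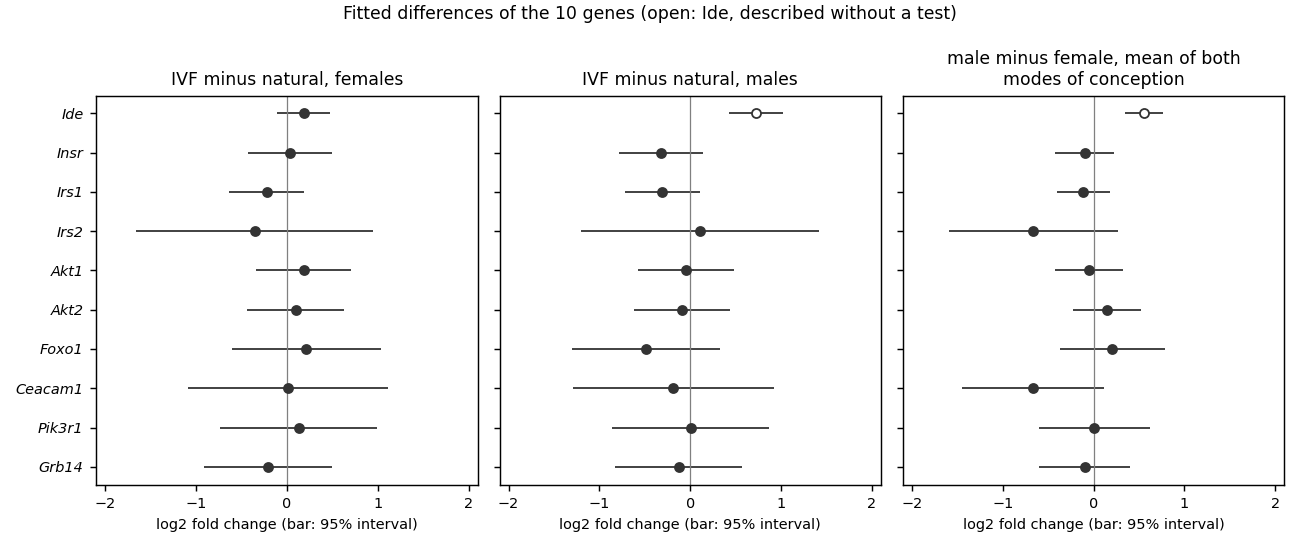
Fitted log2 differences of the 10 genes with 95% intervals, for IVF minus natural livers in females and in males and for males minus females; open points mark the values of Ide that carry no test. All intervals of the 9 other genes include 0, and the interval of Ide in females runs from -0.11 to 0.48.

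The rest of the pathway was read in 7 lists of genes. At the receptor, 14 of 17 adaptor and receptor genes were tested, with a median log2 difference of -0.12 in females and 0.01 in males and none called. Igf1r, the receptor of insulin-like growth factor, had 3.98, 2.66 and 3.70 CPM in IVF males and 6.72, 6.24 and 6.64 in natural males. All IVF males were below all natural males, and the gene was named for this, so its unadjusted p does not count as support. Groups without overlap in males, in either direction, were found for 3 of the 14, against 8.91% of all genes. The log2 difference of -0.92 ± 0.28 had an unadjusted p of 0.00586 and was not called (edgeR, quasi-likelihood test, Benjamini-Hochberg adjusted p = 1). In females it was -0.12 ± 0.28 with overlapping groups, and the difference between the sexes did not pass the test either (unadjusted p = 0.0632, Benjamini-Hochberg adjusted p = 1).

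All 11 listed genes of phosphoinositide 3-kinases and lipid phosphatases were tested, with medians of -0.15 in females and -0.09 in males, and none was called in any comparison. The 20 genes of Akt, the TOR complexes and their substrates had medians of -0.15 in females and -0.04 in males, and none was called for IVF. Between males and females, 15 of the 20 were on the male side, and 2 were called higher in males, where 3.57% of all genes were.

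These were Foxk2 and Eif4ebp1, both higher in males. Foxk2, which encodes a forkhead repressor that the pathway controls, had means of 27.7 ± 3.69 CPM in IVF males and 31.1 ± 4.71 in natural males, against 17.8 ± 2.64 and 16.7 ± 4.35 in IVF and natural females (SD, n = 3 each). Its log2 difference of 0.77 ± 0.15 passed edgeR's quasi-likelihood test (Benjamini-Hochberg adjusted p = 0.0126) and did so in all 12 fits with a library left out, but not with scaling by library size alone (0.0613). Eif4ebp1, which encodes a translation repressor that mTOR inactivates, differed by 0.88 ± 0.21 (edgeR's quasi-likelihood test, Benjamini-Hochberg adjusted p = 0.0303). Its means were 36.1 ± 4.86 CPM in IVF males and 33.6 ± 6.64 in natural males, against 17.1 ± 5.04 and 20.8 ± 7.58 in IVF and natural females (SD, n = 3 each). The call on Eif4ebp1 was lost in 6 of the 12 fits with a library left out (adjusted p 0.0549 to 0.0821: IVF female 1, IVF males 1 and 3, natural female 3 and natural males 2 and 3) and with scaling by library size alone (0.0823).

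Of 17 inhibitors of insulin signalling, 16 were tested, with medians of 0.02 in females and -0.04 in males, and none was called for IVF. Trib1, which encodes a pseudokinase, was called between the sexes, 1 of 16 where 3.57% of all genes were called higher in males. Its means were 54.3 ± 4.27 CPM in IVF males and 57.7 ± 3.63 in natural males, against 38.7 ± 1.57 and 32.4 ± 11.2 in IVF and natural females (SD, n = 3 each), a log2 difference of 0.66 ± 0.16 (SE; edgeR's quasi-likelihood test, Benjamini-Hochberg adjusted p = 0.0299). It was lost in 8 of the 12 fits with a library left out (adjusted p 0.0550 to 0.0725: the IVF females, IVF males 2 and 3 and the natural males), with scaling by library size alone and without both shallow libraries (0.0541).

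FOXO factors and their liver targets numbered 15, with 14 tested and none called for IVF. In females 6 of the 14 had groups without overlap, against 7.42% of all genes, and they went in both directions. Higher after IVF by log2 difference were Pck1 (0.87), the factor gene Foxo3 (0.59) and Klf15 (0.50), a regulator of amino acid use, while G6pc (-1.03), Foxo4 (-0.41) and Cited2 (-0.36) were lower. Without both shallow libraries the values were 0.81, 0.33 and 0.32 for the higher genes and -0.87, -0.40 and -0.51 for the lower ones, in the same order. Pck1 had 1766, 1538 and 1743 CPM in IVF females and 863, 871 and 1019 in natural females. G6pc had 44.5, 92.3 and 61.5 CPM against 162, 119 and 123, so these 2 genes of glucose production lay on opposite sides. None of the 6 passed edgeR's quasi-likelihood test (Benjamini-Hochberg adjusted p = 1 for Pck1 and G6pc). In males none of the 14 had groups without overlap, and the median was -0.25.

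Between the sexes, 2 of the 14 were called, both lower in males, as were 3.63% of all genes. Sesn3, which encodes a stress-induced regulator of TOR, had 6.60 ± 0.774 CPM in IVF males and 7.98 ± 1.44 in natural males, against 13.0 ± 2.005 and 12.2 ± 3.56 in IVF and natural females (SD, n = 3 each). Its log2 difference was -0.81 ± 0.17 (edgeR's quasi-likelihood test, Benjamini-Hochberg adjusted p = 0.0164), and the call was lost only without the third natural male (0.0513). Ppargc1a, which encodes a coactivator of genes of glucose production and mitochondria, differed by -1.40 ± 0.38 (edgeR's quasi-likelihood test, Benjamini-Hochberg adjusted p = 0.0475). That call was lost in 10 of the 12 fits with a library left out (adjusted p 0.0596 to 0.119: all but IVF male 2 and natural female 1), with limma voom and without both shallow libraries (0.114).

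All 12 insulin-induced lipogenic genes were tested. In females 11 of the 12 were on the IVF side of 0, with a median log2 difference of 0.55, whereas 6 of 12 were so in males, with a median of -0.01. None was called. Thrsp, a lipogenic gene of the thyroid hormone response, had 498, 59.7 and 148 CPM in IVF females and 10.9, 19.8 and 96.3 in natural females, with the groups overlapping and a log2 difference of 2.47 ± 0.90 (SE; edgeR's quasi-likelihood test, unadjusted p = 0.0183, Benjamini-Hochberg adjusted p = 1). Its highest value belongs to a shallow library, and without both it was 0.95 ± 0.89. Acly, the gene of ATP citrate lyase, stood at 0.78 ± 0.32 and Insig1, which holds back sterol regulatory proteins, at 1.22 ± 0.50, both with overlapping groups. Leaving out both shallow libraries gave 0.50 ± 0.37 and 0.52 ± 0.54. The median over the list did not persist without both shallow libraries: it was then -0.04, with 6 of 12 genes above 0, where all genes had a median of 0.01.

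Mlxipl, which encodes the carbohydrate response factor ChREBP, went the other way in females. IVF females had 189, 142 and 142 CPM and natural females had 217, 190 and 294. In males IVF livers had 126, 213 and 191 CPM and natural livers had 114, 124 and 120. The IVF livers were thus below every natural liver in females and above every one in males, by -0.57 ± 0.23 and 0.57 ± 0.23 on the log2 scale, neither past the test (edgeR's quasi-likelihood test, Benjamini-Hochberg adjusted p = 1 in both). The value in females was -0.84 ± 0.25 without both shallow libraries. In this list 1 of 12 genes had groups without overlap in each sex, against 7.42% of all genes in females and 8.91% in males. Among natural mice the main analysis did not call Mlxipl between the sexes. There it was called lower in males with DESeq2 (-0.97, adjusted p = 0.00441). So it was by edgeR's quasi-likelihood test with library size alone (-1.30, adjusted p = 0.0155) and without both shallow libraries (-1.11, 0.0407). In the main analysis 1 lipogenic gene was called between the sexes, on average over modes of conception. It was Pnpla3, a lipid droplet lipase gene, lower in males by a log2 difference of -2.72 ± 0.65 (SE; edgeR's quasi-likelihood test, Benjamini-Hochberg adjusted p = 0.0290). This is 1 of 12, where 3.63% of all genes were called lower in males. Pnpla3 had only 4 to 70 counts in a library, the difference was -1.74 without natural female 3, and the call was lost in 9 of the 12 fits with a library left out (adjusted p 0.0503 to 0.0744: all but IVF female 3 and natural females 1 and 2) and with limma voom (0.101).

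The last list covers insulin uptake, endocytosis and degradation, the steps in which Ide itself takes part. Of 18 genes present, 17 were tested and none was called, with medians of 0.03 in females and 0.00 in males. Nrd1, which encodes nardilysin, a protease of the same family as IDE, lay between 63.3 and 80.6 CPM in IVF livers and between 55.9 and 75.0 in natural livers of males, with a log2 difference of 0.18 ± 0.43. Ctsd, the gene of the lysosomal protease cathepsin D, which also degrades insulin, differed by -0.10 ± 0.27 in males. Neither protease gene showed groups without overlap.

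**Figure D5:**
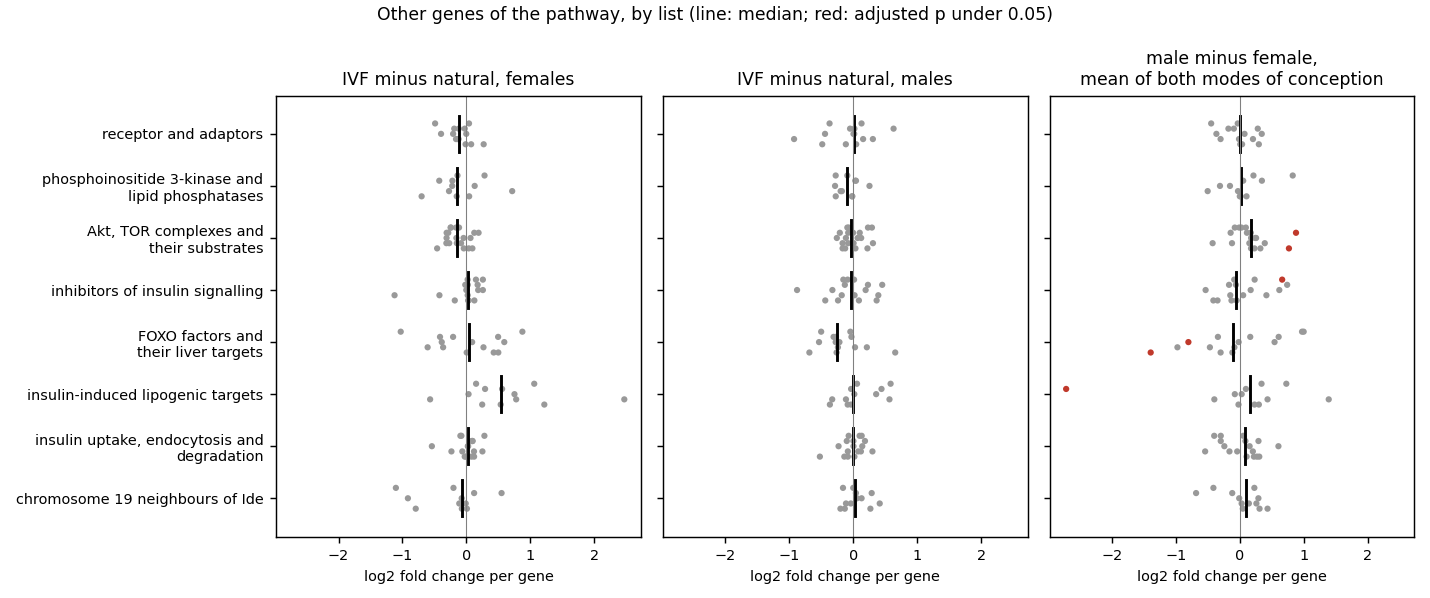
Log2 difference of every tested gene of the 7 pathway lists and of the chromosome 19 neighbours of Ide (points; black lines are medians), for IVF minus natural in females and in males and for males minus females. Red points, seen only in the comparison of the sexes, are the 6 genes with an adjusted p under 0.05.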

How the data were processed

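Per the submitters' processing notes, reads were handled with Trimmomatic 0.32, STAR 2.3.0e and featureCounts 1.5.0 and the build was mm10. The authors deposited a table of whole read counts, 1 row per gene symbol; strand and multi-mapping settings are not given in the sources used here. Counts were fitted with edgeR 4.0.16 in R 4.3.3 (filterByExpr by group, TMM, 1 quasi-likelihood model over 12 libraries, 7 contrasts), with Benjamini-Hochberg adjustment over 13204 genes and calls under 0.05. CPM are TMM-scaled unless stated. Intervals are 95%. Alternatives were RLE factors, library size alone, no filter, DESeq2 1.42.0, limma voom 3.58.1, leaving out both shallow libraries, and each library in turn. The code was tested on simulated data. Positions, lengths and GC content are from GENCODE M21 (GRCm38); promoters are from RefSeq.

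The 10 genes and the lists were chosen with earlier results of these data known. Other genes named are those called in a list, in each sex the 2 list genes of largest IVF difference with at least 50 normalized counts and no overlap, the neighbours of Ide, and the 5 genes most like it; further ones serve as examples, chosen after their values were seen.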

Additional observations from a re-analysis of the deposited data

Results flagged for a closer look

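Mlxipl was singled out because in females each IVF liver lay below each natural liver, while in males each IVF liver lay above. The test that follows rests on the values that flagged the gene, so its unadjusted p does not count as support. The difference of the IVF effects, males minus females, was 1.13 ± 0.33 on the log2 scale (SE), with an unadjusted p of 0.00517. Over all tested genes it did not pass edgeR's quasi-likelihood test (Benjamini-Hochberg adjusted p = 1), and 3.87% of all genes had an unadjusted p under 0.05 for this difference.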

How the results depend on the processing

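No paired analysis was possible because the titles carry no replicate numbers, and only IVF female 1 and IVF male 2 share the leading part of a title number, which the labels do not explain. None of the 10 genes was called under any alternative, Ide being counted in females only, except 1 (Irs2) between the sexes on average without both shallow libraries. Of 1260 alternative values of the 10 genes' differences, 124 changed sign and 22 moved by more than 1 SD between libraries. The number of all genes called moved more. With DESeq2 it was 4 for IVF in females (0 in the main analysis), 5 in males (1), 9 for their difference (0), 4 for their average (1), and for males against females 678 among natural mice (234), 721 among IVF mice (289) and 1693 on average (951). With limma voom it was 0 for IVF in males and 0 for the average IVF effect. With library size alone it was 510 among natural mice and 1625 on average for the sexes. Leaving out 1 library gave 0 to 1 for IVF in males (0 without natural male 2 or 3), 0 to 1 for the average IVF effect (0 without natural female 1 or natural male 1, 2 or 3), and for the sexes 111 (without natural male 3) to 263 among natural mice, 137 (without IVF male 3) to 348 among IVF mice and 519 (without natural male 3) to 810 on average. Library size alone moved the median log2 difference of all genes to 0.14 for IVF in males and -0.22 for males against females on average. The cause of these shifts was not tested. With 3 livers a group, 8 residual degrees of freedom and no counts above 70 for Pnpla3, small differences were not detectable.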
